A study of Homo sapiens with 15 samples.

Results

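The nuclear genes for 58 subunits of the oxidative phosphorylation system were followed through 5 transfection conditions of HGrC1, an immortalized human granulosa cell line. They were taken from the gene table by their listed symbols and all 58 were found among its 37787 genes. All 58 also passed the filter on low counts, which kept 13868 genes. Of them 35 belong to complex I, 8 to complex III, 11 to complex IV and 4 to complex V. NDUFA4 carries a complex I name but is counted here with complex IV, where its protein resides. The succinate dehydrogenase genes of complex II and the genes carried by mitochondrial DNA are not among the 58.

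The Vectors condition received empty plasmids. FOXL2WT cells received SMAD3 with wild-type FOXL2, and FOXL2C134W cells received SMAD3 with the FOXL2 form that carries tryptophan in place of cysteine at residue 134, the change found in adult granulosa cell tumors. FOXL2WT + FOXO1 and FOXL2C134W + FOXO1 received in addition FOXO1-3A, a constitutively active form that growth factor signaling cannot phosphorylate at the replaced residues. SMAD3 was transfected in all conditions but Vectors, so a comparison with Vectors changes SMAD3 and FOXL2 together. Each condition has 3 libraries, A, B and C, from transient transfections of 1 line that carries normal FOXL2 alleles. The labels do not say whether they came from separate cultures, so p-values measure the spread between these libraries, which may be technical.

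The libraries held 14962245 to 25339094 estimated counts. The transfected genes stood where the labels place them, but at unequal levels. FOXL2 reached 561 ± 5.89 CPM (read counts scaled to a common library total after normalization by TMM, the trimmed mean of M-values; SD, n = 3) in FOXL2WT and 147 ± 27.0 CPM in FOXL2C134W, against 8.73 ± 0.704 CPM in Vectors. SMAD3 was at 249 ± 12.0 CPM in Vectors, 2768 ± 154 CPM in FOXL2WT and 843 ± 37.4 CPM in FOXL2C134W, and with FOXO1 at 969 ± 10.8 and 392 ± 16.9 CPM. FOXL2 was at 384 ± 15 CPM in FOXL2WT + FOXO1 and 152 ± 20.1 CPM in FOXL2C134W + FOXO1, and FOXO1 at 117 ± 14.5 CPM in FOXL2WT + FOXO1 and 43.2 ± 4.06 CPM in FOXL2C134W + FOXO1. In every comparison of the FOXL2 forms the form and the amount of plasmid RNA therefore cannot be told apart, and the same holds for FOXO1 and the lower SMAD3 that came with it. At the protein level the study reports balanced FOXL2WT, FOXL2C134W and FOXO1, by immunoblot of samples cultured in parallel. SMAD3 protein is not mentioned there. Of 12 granulosa markers, FSHR and LHCGR, the gonadotropin receptors, had 0 counts in every library, and CYP19A1, the aromatase, had at most 4, while GATA4, a transcription factor of these cells, had at least 1953. Of 4 epithelial markers, the keratins KRT7 and KRT19 were abundant, at means of 2141 and 444 TPM (transcript abundance scaled by length and to a common library total) in Vectors, while EPCAM was at 6.80 TPM and CDH1, the epithelial cadherin, had at most 12 counts in a library. Of 4 leukocyte markers, PTPRC had at most 5 counts, CD3E at most 1 and CD14 at most 38, and CD68, a lysosomal protein, had 1319 to 2789.

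Oxidative phosphorylation is the route by which mitochondria turn the energy of nutrients into ATP. Complex I takes electrons from NADH, complex III passes them from ubiquinol to cytochrome c and complex IV hands them to oxygen, and the protons that these complexes pump across the inner membrane drive complex V, the ATP synthase. Each of these complexes combines proteins made from nuclear genes with a few made from mitochondrial DNA. Granulosa cells depend on mitochondria for the first step of steroid synthesis as well as for ATP.

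All 58 transcripts were abundant. The median member had a mean level of 188 TPM over the 15 libraries, which was above the level of 94.3% of the genes tested, and the median of those genes was 14.8 TPM. No member lay below that median, and the lowest count of any member in any library was 260. TPM is scaled by transcript length, so levels can be compared between genes on it.

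Complex V had the highest median level of its members, at 552 TPM, followed by complex IV at 433 TPM, complex III at 180 TPM and complex I at 155 TPM. ATP5F1B, the catalytic beta subunit of the ATP synthase, was the highest of all at a mean of 722 TPM, and ATP5F1C, the gamma subunit of its rotating shaft, was the lowest of the 4 complex V members at 325 TPM. In complex IV the mean level ran from 171 TPM for COX7B, a small membrane subunit, to 667 TPM for NDUFA4. In complex III it ran from 60.1 TPM for UQCRFS1, the Rieske iron-sulfur protein, to 239 TPM for UQCRH, the hinge protein that helps bind cytochrome c. Complex I spanned the widest range, from 18.2 TPM for NDUFV3, an accessory subunit near the NADH site, to 425 TPM for NDUFS5, an accessory subunit of the membrane arm. The highest member of complex I was thus 23.4 times the lowest, against ratios of 3.98, 3.90 and 2.22 in complexes III, IV and V. These ratios cover 35 members of complex I against 8, 11 and 4, and a range can widen with the number of genes. The next lowest complex I member after NDUFV3 was NDUFA2, at 41.9 TPM.

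**Figure D1:**
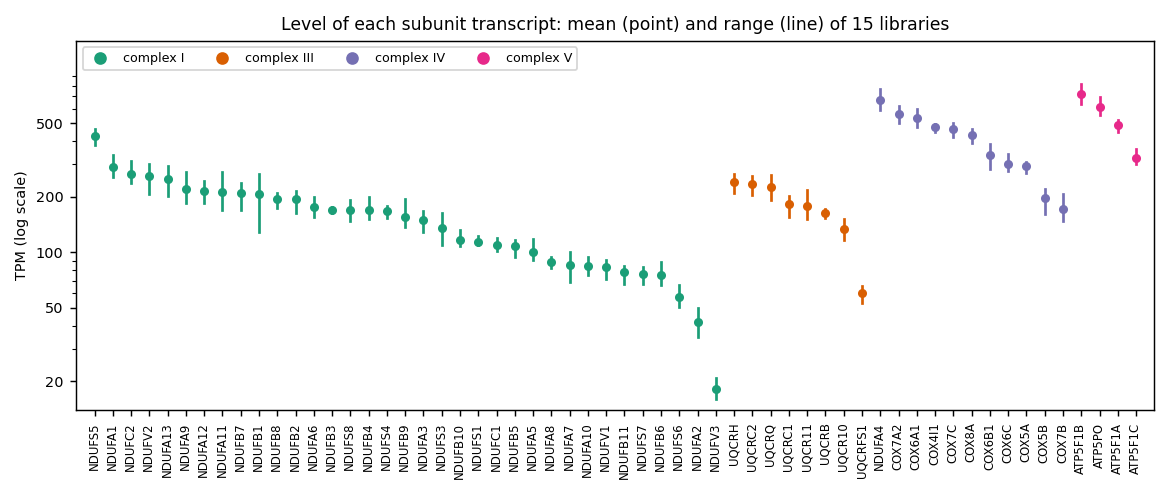
Mean TPM of each of the 58 subunit genes over 15 libraries (points, log scale) with the lowest and highest library (lines), ordered by level within each complex. Complex V and complex IV genes sit highest, with ATP5F1B at 722 TPM, and NDUFV3 of complex I sits lowest at 18.2 TPM.

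The levels varied little between libraries. The coefficient of variation of the CPM over all 15 libraries had a median of 7.61% among the members and 8.43% among all genes tested. It was lowest for UQCRC2, a core protein of complex III, at 2.86%, and highest for NDUFA11, a membrane-arm subunit of complex I, at 14.2%. Within a condition the SD of log2-CPM had a median of 0.101 for members, close to that of all genes tested. Summed over the 58 genes, the members made up 0.562% ± 0.0174 of the scaled counts in Vectors, 0.571% ± 0.00323 in FOXL2WT, 0.536% ± 0.0186 in FOXL2C134W, 0.582% ± 0.0398 in FOXL2WT + FOXO1 and 0.546% ± 0.0249 in FOXL2C134W + FOXO1 (SD, n = 3 each). All 3 FOXL2WT libraries, at 0.568% to 0.574%, lay above all 3 FOXL2C134W libraries, at 0.525% to 0.557%. The other tested genes with transcripts under 1000 bases were separated in the same way, at 15.6% to 15.8% and 14.3% to 15.2%.

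A pair of libraries stood apart from the others of their own conditions in this sum. FOXL2WT + FOXO1 A had the highest share, 0.628%, against 0.560% and 0.558% in the other 2 libraries of its condition, and FOXL2C134W + FOXO1 C had the lowest, 0.518%, against 0.564% and 0.556%. The lowest share was close to those of FOXL2C134W B and C, at 0.526% and 0.525%. FOXL2WT + FOXO1 A was also the library with the fewest counts, 14962245, while FOXL2WT B, with 14992137, had a share of 0.572%. The 1651 other tested genes whose transcripts are shorter than 1000 bases also had their highest and lowest shares in these libraries. They made up 14.2% of scaled counts in FOXL2C134W + FOXO1 C, 14.3% in FOXL2C134W B and C, and 17.0% in FOXL2WT + FOXO1 A. This bears on the members because they are short, with a median transcript length of 646 bases against 2110 bases for all genes tested, and 45 of the 58 lie under 1000 bases against 12.2% of all genes tested. Whether the shift of short genes accounts for that of the members was not tested, and each comparison of the members below is given beside it.

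**Figure D2:**
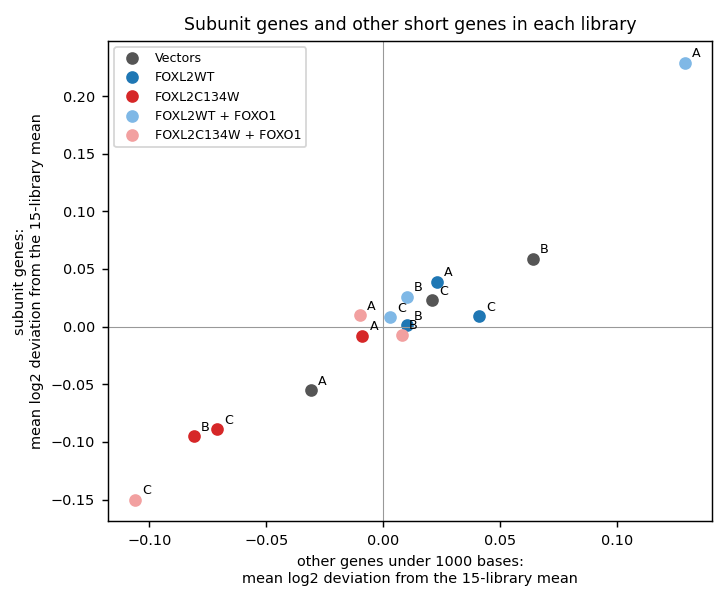
Each point is 1 of the 15 libraries (letters A, B and C, colors for conditions). The horizontal axis is the mean log2-CPM deviation of the 1651 other tested genes under 1000 bases from their mean over all libraries, and the vertical axis is the same for the 58 subunit genes. FOXL2WT + FOXO1 A lies farthest up at 0.229 for the subunit genes and 0.129 for the other short genes, and FOXL2C134W + FOXO1 C lies farthest down at -0.150 and -0.106.

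**Figure D3:**
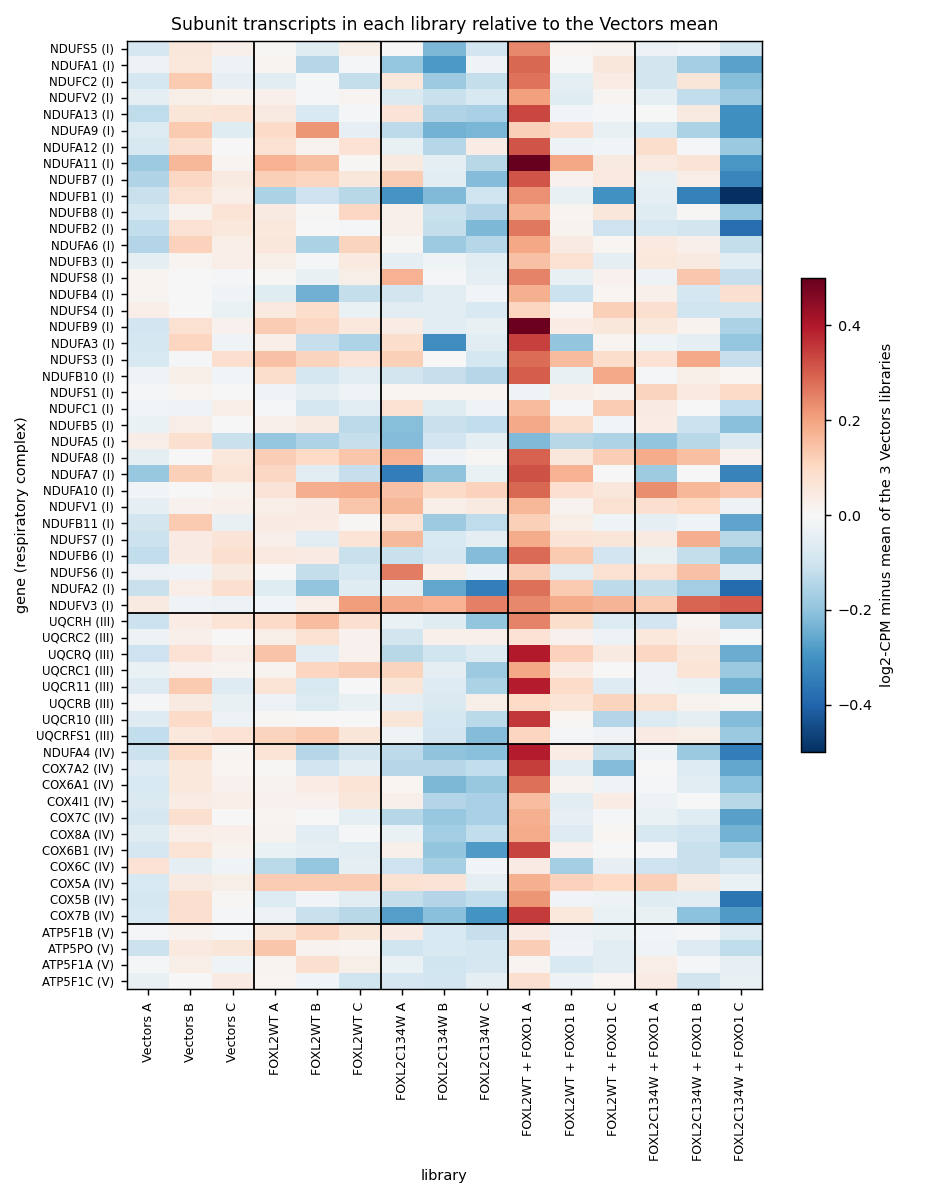
Log2-CPM of each subunit gene (rows, with its complex) in each library (columns) minus the mean of the 3 Vectors libraries, from blue (lower) to red (higher). The column of FOXL2WT + FOXO1 A is red and that of FOXL2C134W + FOXO1 C blue across most rows of complexes I, III and IV, while the rows of complex V are pale throughout.

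With wild-type FOXL2 and SMAD3, no subunit gene passed the test. In FOXL2WT against Vectors 0 of 58 members were called (adjusted p under 0.05, edgeR's quasi-likelihood test with Benjamini-Hochberg adjustment over all 13868 genes), while 6.07% of all genes were called. DESeq2 also called 0, and 4 members had an unadjusted p under 0.05. The member with the smallest adjusted p was NDUFA5, an accessory subunit of complex I, with a log2 fold change of -0.15 and an adjusted p of 0.13. The median log2 fold change of the members was 0.005, against 0.003 for all genes, and 31 members lay above 0 and 27 below. The tested genes under 1000 bases had a median of 0.024. With an offset for gene length in the fit, the median of the members was -0.018. Every member's 95% interval stayed within a 1.5-fold change in either direction. When only the libraries of Vectors and FOXL2WT entered the fit, 1690 genes were called in all, against 842 in the main fit. The 1 member called there was NDUFA10, an accessory subunit of complex I, at a log2 fold change of 0.15 (adjusted p = 0.033).

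With FOXL2C134W and SMAD3, COX7B fell and NDUFV3 rose against Vectors, and the other 56 members were not called. This is 2 of 58 members where 14.7% of all genes were called. COX7B stood at 54.0, 60.3 and 56.8 CPM in Vectors and at 47.1, 49.2 and 46.4 CPM in FOXL2C134W. All 3 FOXL2C134W libraries were below all 3 of Vectors, with a log2 fold change of -0.26 ± 0.08 (SE, adjusted p = 0.034). NDUFV3 stood at 30.1, 28.8 and 28.6 CPM in Vectors and at 33.2, 32.9 and 34.7 CPM in FOXL2C134W. Here all 3 FOXL2C134W libraries were higher, with a log2 fold change of 0.20 ± 0.06 (adjusted p = 0.037). Without Vectors B, Vectors C, FOXL2C134W B or FOXL2C134W C no member was called. The genes called in all were then 1326, 1348, 1275 and 1560, against 2041 in the main fit. Without FOXL2C134W A the called members were NDUFV3 and COX6B1 of complex IV, among 2126 genes called in all. COX7B had an adjusted p of 0.071 there. With 1 of the 6 libraries left out in turn, COX7B thus kept its call in 1 fit and NDUFV3 in 2.

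Most other members also lay slightly lower in FOXL2C134W than in Vectors, by less than the test could call. The median log2 fold change was -0.080, with 48 of 58 below 0, where all genes had a median of 0.004 and 48.9% below 0. Without FOXL2C134W B it was -0.051, with 43 below 0, and with the other libraries left out in turn it ran from -0.113 to -0.059. The replicates did not overlap, with FOXL2C134W lower, for 12 members, beside 16.1% of all genes. The medians were -0.076 in complex I, -0.051 in complex III, -0.131 in complex IV and -0.073 in complex V. The other short genes moved the same way, since the median over all 1696 tested genes under 1000 bases, 45 of them members, was -0.057 and that over the longer genes 0.014. With an offset for gene length per library in the same fit, the median of the members was -0.021. COX7B fell and NDUFV3 rose in that fit too, and NDUFA10 rose by 0.15 (adjusted p = 0.027).

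Between the FOXL2 forms, both with co-transfected SMAD3, 3 members fell and none rose. In FOXL2C134W against FOXL2WT the called members were NDUFA9, UQCRFS1 and ATP5F1A, 1 each from complexes I, III and V. All genes were called at 11.2% in either direction and at 4.12% as lower. DESeq2 called the same 3 members and ATP5F1B, all as lower, among 1706 genes called in all.

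NDUFA9, an accessory subunit at the joint between the matrix arm and the membrane arm of complex I, stood at 78.5, 85.6 and 71.5 CPM in FOXL2WT. In FOXL2C134W it stood at 67.2, 62.4 and 62.7 CPM, below every FOXL2WT library, and the log2 fold change was -0.29 ± 0.07 (adjusted p = 0.015). It was also the member that kept its call under all 12 other settings of the test or model that kept all 3 libraries of both conditions, at values from -0.30 to -0.19. Leaving out FOXL2WT B, FOXL2C134W B or FOXL2C134W C ended the call, with adjusted p from 0.060 to 0.11. In the presence of FOXO1 the values were 80.0, 77.8 and 71.7 CPM for the wild-type form and 69.7, 65.9 and 59.4 CPM for C134W, which do not overlap either, but the difference of -0.23 had an adjusted p of 0.21.

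UQCRFS1, which carries the iron-sulfur cluster that takes electrons from ubiquinol, stood at 158, 160 and 153 CPM in FOXL2WT and at 145, 137 and 126 CPM in FOXL2C134W. The groups did not overlap and the log2 fold change was -0.21 ± 0.07 (adjusted p = 0.046). ATP5F1A, the alpha subunit of the ATP synthase, stood at 656, 686 and 662 CPM in FOXL2WT and at 634, 606 and 613 CPM in FOXL2C134W. Again the groups did not overlap, and the log2 fold change was -0.11 ± 0.04 (adjusted p = 0.048). Both calls were close to the threshold. That of UQCRFS1 held in 8 of the 12 other settings, and that of ATP5F1A in 3.

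**Figure D4:**
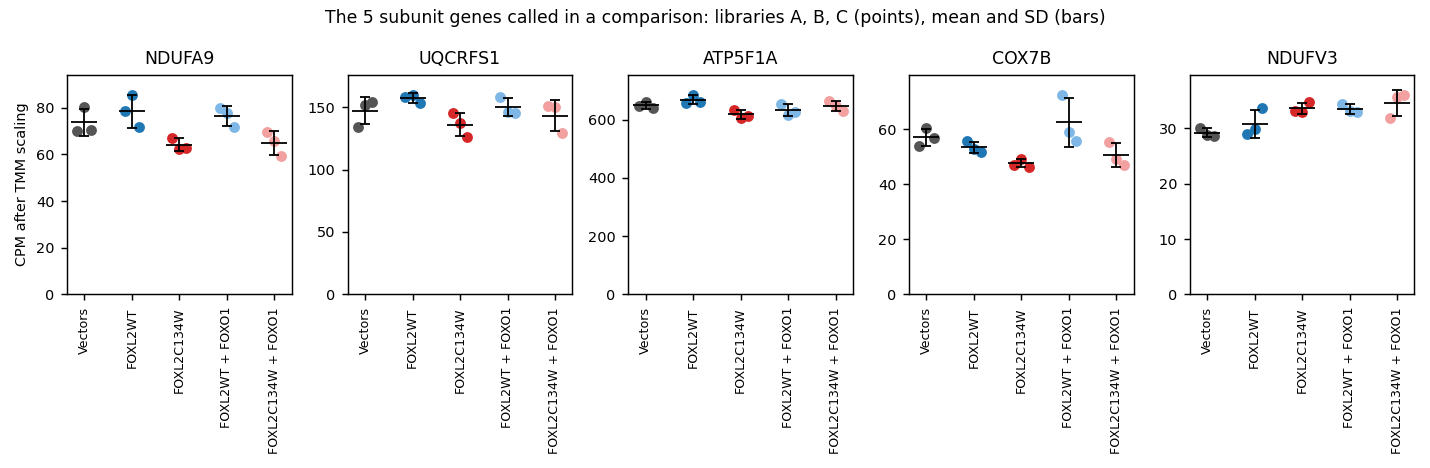
CPM of the 5 subunit genes called in a comparison, in the 15 libraries (points in the order A, B, C), with the mean and SD of each condition (black bars, n = 3); the vertical axes start at 0. FOXL2C134W lies below FOXL2WT for NDUFA9, UQCRFS1 and ATP5F1A, and for COX7B and NDUFV3 it lies below and above Vectors, by less than 1.5-fold in each case.

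Read per transcript, the called genes differ in what their counts hold. UQCRFS1 has a single transcript in the deposited tables, of 3086 bases, and 96.8% of the ATP5F1A reads were assigned to ATP5F1A-201. COX7B reads were assigned at 83.1% to COX7B-201. For NDUFA9 only 55.4% of the estimated reads lay in transcripts annotated as protein coding, while 44.5% lay in transcripts with a retained intron, chiefly NDUFA9-205 and NDUFA9-208. Of the NDUFV3 reads, 75.4% were assigned to transcripts annotated as processed, without a coding frame, chiefly NDUFV3-203, and 24.6% to coding ones. The gene counts of NDUFA9 and NDUFV3 are therefore not counts of the coding mRNA alone, and these shares are estimates made from 75-base single reads.

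In GENCODE 44 on GRCh38, the build of the deposited files, NDUFA9 lies at chr12:4649095-4694317 on the plus strand, UQCRFS1 at chr19:29205320-29213151 on the minus strand and ATP5F1A at chr18:46080248-46104334 on the minus strand. COX7B lies at chrX:77899440-77907376 and NDUFV3 at chr21:42879644-42913304, both on the plus strand. The 58 genes are spread over 20 chromosomes, with 9 of them on chromosome 19. Their promoters, from RefSeq on GRCh38.p14, are shown here for the 5 called genes as the stretch from 150 bases before the start of transcription to 30 bases after it, because promoters of respiratory genes are known to share binding motifs. Capitals mark matches on either strand to the core of the site for NRF1, a regulator of respiratory genes, spelled GCGCANGC, to the ETS motif CCGGAAG, to the YY1 motif AAGATGGC, to the CCAAT box, to the forkhead motif TGTTTAC and to the SMAD motif GTCTAGAC. The RefSeq start of NDUFV3 lies inside the longer gene that GENCODE annotates.
NDUFA9, chr12:4648964-4649143, plus strand: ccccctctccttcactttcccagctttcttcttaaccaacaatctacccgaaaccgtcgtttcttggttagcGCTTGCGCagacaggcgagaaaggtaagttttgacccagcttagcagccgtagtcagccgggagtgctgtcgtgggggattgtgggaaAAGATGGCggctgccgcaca
UQCRFS1, chr19:29213122-29213301, minus strand: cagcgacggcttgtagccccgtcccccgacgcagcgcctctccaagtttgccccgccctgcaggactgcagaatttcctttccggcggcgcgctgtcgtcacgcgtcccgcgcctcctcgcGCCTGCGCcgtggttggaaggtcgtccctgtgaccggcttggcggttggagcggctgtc
ATP5F1A, chr18:46104198-46104377, minus strand: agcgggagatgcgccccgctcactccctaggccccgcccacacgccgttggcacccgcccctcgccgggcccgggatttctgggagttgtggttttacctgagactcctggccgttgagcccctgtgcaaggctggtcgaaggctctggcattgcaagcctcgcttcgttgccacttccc
COX7B, chrX:77899318-77899497, plus strand: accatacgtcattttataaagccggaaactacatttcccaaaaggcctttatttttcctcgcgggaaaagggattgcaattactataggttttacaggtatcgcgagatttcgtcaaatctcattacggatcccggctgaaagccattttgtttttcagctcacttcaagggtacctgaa
NDUFV3, chr21:42893159-42893338, plus strand: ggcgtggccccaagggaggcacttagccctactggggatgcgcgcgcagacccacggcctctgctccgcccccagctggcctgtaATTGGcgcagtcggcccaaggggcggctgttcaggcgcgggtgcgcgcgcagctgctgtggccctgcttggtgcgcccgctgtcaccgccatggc

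The NDUFA9 stretch held an NRF1 match that begins 78 bases before the start and a YY1 match that begins 10 bases after it, UQCRFS1 held an NRF1 match 29 bases before the start, and NDUFV3 held a CCAAT match 65 bases before it. None of the 6 motifs matched in the stretches of ATP5F1A and COX7B. Windows of 250 bases before to 50 after the start were given for 50 of the 58 members, in 59 windows. The NRF1 core was present in 35.6% of these, against 18.6% of the windows of tested genes and 12.0% of all 35116 windows, the YY1 motif in 15.3% against 4.65% and 2.89%, and the ETS motif in 23.7% against 16.6% and 10.3%. CCAAT was present in 28.8%, against 34.5% and 34.6%. Neither the forkhead motif nor the SMAD motif was present in a member window, and in all windows they were present in 3.42% and 0.202%. The ETS and YY1 motifs can overlap by their shared AAG. A match describes the sequence and is not a binding site.

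The other members in FOXL2C134W against FOXL2WT lay mostly lower as well. The median log2 fold change was -0.096 and 47 of 58 were below 0, where all genes had a median of -0.012 and 52.7% below 0. The replicates did not overlap, with FOXL2C134W lower, for 18 members, 6 each in complexes I and IV and 3 each in complexes III and V, beside 15.6% of all genes. In complex I the 6 core subunits, which include those that carry the flavin and iron-sulfur clusters, had a median of 0.005. The 29 accessory subunits had a median of -0.102. The medians of complexes III, IV and V were -0.086, -0.099 and -0.117. Every member's 95% interval lay within a 1.5-fold change.

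Here too the short genes moved with the members. The 1696 tested genes under 1000 bases had a median of -0.091 and the longer ones 0.001. With the gene length offset the median of the members was -0.008, with 35 of 58 below 0, and the called members were NDUFA9 at -0.20 and UQCRFS1 at -0.24, both lower, and NDUFS6 at 0.24, higher (adjusted p = 0.034, 0.036 and 0.012). NDUFS6 is an accessory subunit that binds zinc in the matrix arm of complex I. The part of transcript length in the lower level of the members was not tested further. Without FOXL2WT B, FOXL2C134W B or FOXL2C134W C 0 members were called, where 772, 782 and 866 genes were called in all. Without FOXL2WT A or FOXL2WT C 1 member was called, among 1065 and 1132 genes. Without FOXL2C134W A 6 members were called, among 2120 genes, where the main fit called 1560.

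No member passed the test for FOXO1 in either background. In FOXL2WT + FOXO1 against FOXL2WT 0 members were called by edgeR and 0 by DESeq2, with 6 at an unadjusted p under 0.05, and of all genes 0.0505% were called. The median log2 fold change was 0.066, with 48 of 58 above 0. With the gene length offset it was 0.028, and the tested genes under 1000 bases had a median of 0.021. The replicates did not overlap, with FOXO1 higher, for 3 members (NDUFC1, UQCRB and COX6B1), beside 6.89% of all genes. Without FOXL2WT + FOXO1 A the median was -0.001, with 29 of 58 above 0, and without FOXL2WT + FOXO1 B or C it was 0.106 or 0.105. COX7B stood at 55.7, 52.8 and 51.8 CPM in FOXL2WT and 72.5, 59.0 and 55.6 CPM in FOXL2WT + FOXO1 A, B and C, where the third overlaps the range of FOXL2WT.

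In FOXL2C134W + FOXO1 against FOXL2C134W 0 members were called by edgeR and 0 by DESeq2, with 1 at an unadjusted p under 0.05, and 0.714% of all genes were called. The median was 0.015, with 35 of 58 above 0. With each library left out in turn it ranged from -0.010, without FOXL2C134W + FOXO1 A, to 0.056, without FOXL2C134W + FOXO1 C, and it was also below 0 without FOXL2C134W B (-0.006) or FOXL2C134W + FOXO1 B (-0.004). The 5 members called in the comparisons of the FOXL2 forms or with Vectors had values between 0.02 for NDUFA9 and 0.09 for COX7B here. The 95% intervals of all 58 stayed within a 1.5-fold change. With the gene length offset the median of the members was -0.010, and the tested genes under 1000 bases had a median of 0.023.

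When both forms were combined with FOXO1, the members stood lower with C134W by the largest median of the 7 comparisons, yet none was called by edgeR. In FOXL2C134W + FOXO1 against FOXL2WT + FOXO1 the median log2 fold change was -0.143, with 51 of 58 below 0, against a median of -0.001 and 50.4% below 0 for all genes. Of all genes 0.144% were called. 27 members had an unadjusted p under 0.05, 26 of them lower, and the smallest adjusted p was 0.17, for NDUFA1. The share of all genes with an unadjusted p under 0.05 was not counted, here or in the other comparisons. These counts of members therefore have no background beside them and are not read as results about the members. The replicates did not overlap, with C134W lower, for 9 members of complexes I and IV, beside 7.79% of all genes.

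NDUFA1, a small membrane-arm subunit of complex I, chosen here after its values were seen, stood at 54.0, 44.4 and 46.0 CPM in FOXL2WT + FOXO1 and at 41.6, 39.3 and 36.7 CPM in FOXL2C134W + FOXO1. COX7B, at 72.5, 59.0 and 55.6 CPM against 55.4, 49.3 and 46.8 CPM, was likewise separated, with a log2 fold change of -0.30 ± 0.08 (edgeR adjusted p = 0.17). DESeq2 called these 2 genes as lower, with adjusted p of 0.041 and 0.040, among 95 genes called in all. With a filter of at least 1 count in any library, 446 genes were called in all, where the main fit called 20. Of the members 14 were called there, all lower, from complexes I, III and IV. NDUFA4, NDUFA11 and COX7B had the smallest adjusted p of these, at 6.2e-05, 0.00012 and 0.00068.

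Leaving out either of the libraries that stood apart moved this difference. Without FOXL2WT + FOXO1 A the median of the members was -0.070, with 44 below 0. Without FOXL2C134W + FOXO1 C it was -0.082, with 47 below 0. The tested genes under 1000 bases had a median of -0.087, the members under 1000 bases -0.167 and the 13 longer members -0.024. With the gene length offset the median of all members was -0.041.

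The interaction, the effect of FOXO1 in FOXL2C134W minus that in FOXL2WT, was called for 0 members by edgeR and by DESeq2, with 1 at an unadjusted p under 0.05, where 1.38% of all genes were called. That member was ATP5F1A, with a difference of 0.15 ± 0.05 on the log2 scale (adjusted p = 0.19). Its levels were 655, 615 and 625 CPM in FOXL2WT + FOXO1 and 664, 647 and 631 CPM in FOXL2C134W + FOXO1. The median of the members was -0.058, and it was -0.007 without FOXL2WT + FOXO1 A, -0.014 without FOXL2C134W + FOXO1 C and -0.089 without FOXL2C134W B or FOXL2WT + FOXO1 B. With the gene length offset it was -0.054, and the tested genes under 1000 bases had a median of 0.003.

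**Figure D5:**
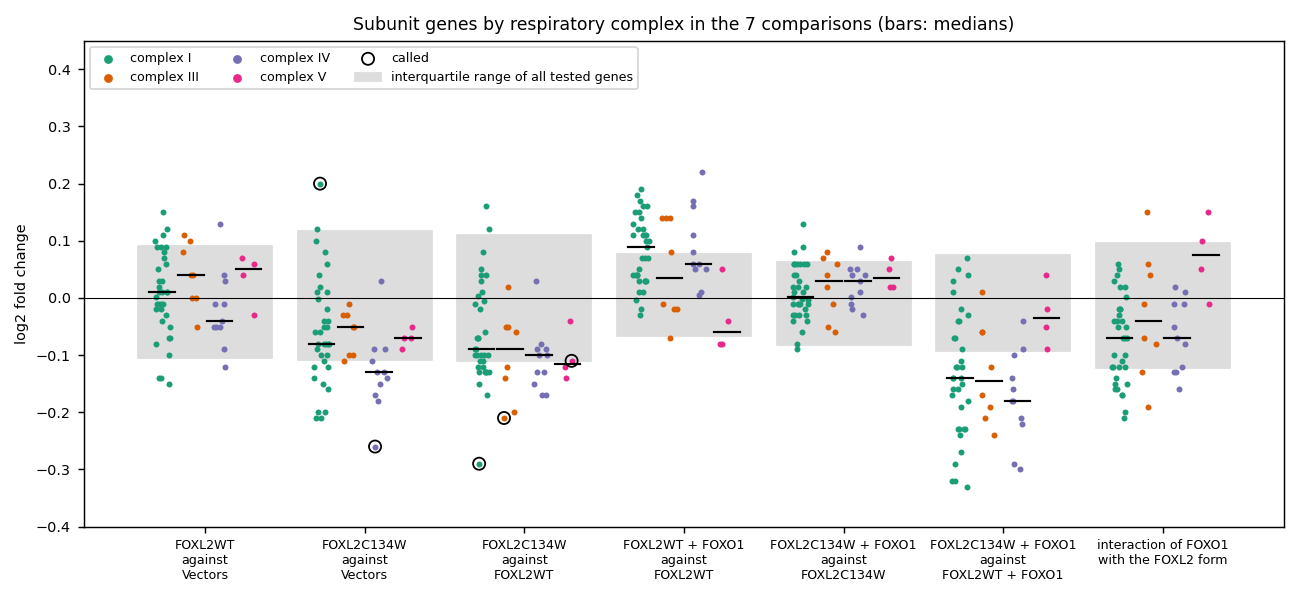
Log2 fold changes of the 58 subunit genes (points, colored by complex; circles mark called genes; black bars are medians) in the 7 comparisons, over the interquartile range of all tested genes (gray). The points lie mostly below 0 in the comparisons of C134W with Vectors or with the wild-type form, with medians of -0.080, -0.096 and, with FOXO1, -0.143, and 5 points are circled.

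The other nuclear genes of respiration were taken from lists of textbook membership, and their calls are read beside the 14.7% of all genes called in FOXL2C134W against Vectors and the 11.2% called against FOXL2WT. Of the 14 ATP synthase subunits outside the 58, 1 fell in FOXL2C134W against Vectors, ATP5PD, a subunit of the stator stalk, at -0.19 (adjusted p = 0.012), and the list's median was -0.092. Of the 8 subunits and assembly factors of complex II, 2 fell in FOXL2C134W against FOXL2WT, where 4.12% of all genes were called as lower, namely SDHD at -0.23 and SDHB at -0.17 (adjusted p = 0.012 and 0.021). SDHAF2, an assembly factor of that list, fell against Vectors at -0.26 (adjusted p = 0.033). Of 43 assembly factors, COA7, which serves complex IV, rose by 0.24 against Vectors and by 0.20 against FOXL2WT, and COX17, the copper chaperone of complex IV, fell by 0.28 against Vectors. Among 11 tested regulators of mitochondrial biogenesis, PPRC1, a coactivator related to PGC-1, rose in FOXL2C134W by 0.28 against Vectors and by 0.35 against FOXL2WT (adjusted p = 0.0076 and 0.0025), and PPARGC1B rose by 0.74 against Vectors.

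Enzymes of carbon metabolism were called against Vectors as well. Of 15 enzymes of the tricarboxylic acid cycle, FH, the fumarase, rose in FOXL2WT by 0.20, where 6.07% of all genes were called. In FOXL2C134W, where 14.7% were called, FH rose by 0.19 and CS, the citrate synthase, by 0.13. Of 17 glycolysis enzymes, 2 rose and 2 fell in FOXL2C134W against Vectors, among them PGAM1 at -0.22 and PFKP at 0.18. The 11 mobile electron carriers and adenine nucleotide carriers had no call in any of the 7 comparisons.

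The subunits encoded by mitochondrial DNA, which assemble with the 58 in the same complexes, gave different values. Of the 12 tested, 11 rose in FOXL2C134W against Vectors and none fell, with a median of 0.505, and 9 rose against FOXL2WT, with a median of 0.415. With FOXO1 added to FOXL2C134W, 7 of the 12 fell, with a median of -0.402, and in the interaction 2 fell. Of all genes, 14.7% were called in FOXL2C134W against Vectors, 11.2% against FOXL2WT, 0.714% with FOXO1 added and 1.38% in the interaction. The nuclear-encoded members had medians of -0.080, -0.096, 0.015 and -0.058 in these same comparisons. The comparisons share libraries, and the difference between both sets of genes was not tested. MT-ND4, a proton-pumping subunit of complex I, rose by 0.64 against Vectors (adjusted p = 3.6e-05). Libraries made by selection of polyadenylated RNA carry mitochondrial transcripts only as far as these are polyadenylated.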

How the data were processed

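Stranded mRNA libraries, 15 in all, were made from HGrC1 cells and sequenced as 75-bp single-end reads. The authors estimated transcript abundance with Salmon 1.1.0 on hg38 and imported it with tximport. The deposited gene table holds estimated counts, rounded and not normalized, and the deposited TPM values cover 227063 transcripts per library. TPM served for levels and to weight transcript lengths.

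Conditions and replicate letters came from the labels. Genes were filtered with filterByExpr, scaled with TMM and compared by the quasi-likelihood test of edgeR 4.0.16 (R 4.3.3) in 1 fit of all 15 libraries, with Benjamini-Hochberg adjustment over 13868 genes and a threshold of 0.05. The fit was tested on simulated counts. Alternatives were DESeq2 1.42.0, other scalings and filters, a replicate block, a fit of only the conditions compared, a lowess offset per library (span 0.3) for gene length or GC content, and leaving out each library. Replicates did not overlap when all 3 libraries of a condition lay on 1 side of all 3 of the other.

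The members and gene lists were chosen with earlier results of these data known, so no list received a test of its own. Members named with values per library were those called without overlap of the replicates, up to 3 in each direction, and the highest and lowest in level of each complex. Other members named were chosen after their values were seen. Of 30 pairs of libraries with the same letter in different conditions, 2 had a correlation of their deviations above 0.1. The median correlation was 0.00360 for the same letter and 0.00584 for different letters. The main fit did not pair the libraries by letter, and whether a letter stands for a shared culture is not known. All replicates differed by more than counting noise.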

Additional observations from a re-analysis of the deposited data

How the results depend on the processing

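The 7 counts of called members were recomputed under 12 other settings that kept all libraries and with each library left out. In FOXL2WT against Vectors the count of 0 became 1 with only the conditions compared. In FOXL2C134W against Vectors the count of 2 became 5 with a filter of at least 1 count in any library and 5 with only the conditions compared, 1 with the GC content offset and 0 in DESeq2 with transcript length offsets. It ranged from 0 to 2 with a library left out. In FOXL2C134W against FOXL2WT the count of 3 became 1 with DESeq2 size factors and ranged from 0 to 6 with a library left out. In FOXL2C134W + FOXO1 against FOXL2WT + FOXO1 the count of 0 became 2 in DESeq2 and 14 with the filter of at least 1 count. The cause of these changes was not tested. The counts of all genes called moved too, for the last comparison from 20 to 95 in DESeq2 and 446 with that filter. In FOXL2WT against Vectors 842 became 1690 with only the conditions compared. In FOXL2C134W against Vectors 2041 became 2320 with that filter and 1883 with only the conditions compared. There it was 2481 with the GC content offset and 971 in DESeq2 with transcript length offsets. In FOXL2C134W against FOXL2WT 1560 became 1565 with DESeq2 size factors.

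The replicate block gave 3 members in FOXL2C134W against Vectors, where NDUFA9 joined, and 3 against FOXL2WT, where ATP5F1B took the place of ATP5F1A. Correlations of the deviations of libraries with the same letter ran from -0.164 to 0.166. In the block with the gene length offset, the medians were -0.008 for FOXL2C134W against FOXL2WT and -0.041 for the same comparison with FOXO1. Offsets for length and GC content together, added after the data were seen, gave -0.007 and -0.040. None of the 5 called members changed direction under the settings run, in the comparison in which it was called. The median SE of a member's log2 fold change was 0.071 to 0.072 in the comparisons of 2 conditions, which limits the changes that can be called.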
